A study of Mus musculus with 6 samples.

Results

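Annexin and S100 mRNAs were compared between the livers of 2 groups of obese mice. The 10 genes were chosen by name, 5 annexins (Anxa1, Anxa2, Anxa3, Anxa5 and Anxa6) and 5 S100 genes (S100a4, S100a6, S100a10, S100a11 and S100a16), out of 18453 genes with any count. All 10 passed the filter on low counts that left 13431 genes to test. The livers came from 6 Mettl14f/f males, which carry floxed alleles of Mettl14, the partner of METTL3 in the enzyme complex that writes the m6A mark on RNA. Per the study's methods, the mice were 8 weeks old when a high-fat diet (HFD) began and were injected by tail vein after 10 weeks of it, and 8 weeks later RNA was taken from the liver. Each mouse received an AAV8 vector whose TBG promoter is active in hepatocytes, carrying Cre recombinase in 3 mice (AAV8-TBG-Cre) and GFP in the other 3 (AAV8-TBG-GFP, the control group, labelled WT). Floxed alleles, sex, diet and viral serotype were thus shared by both groups, and the vector targets hepatocytes while the RNA came from whole liver.

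Annexins are cytosolic proteins that attach to acidic membrane lipids when calcium rises, and they act in membrane repair, vesicle traffic and the control of inflammation. S100 proteins are small EF-hand proteins that dimerize and bind target proteins, annexins among them, usually when calcium is bound. S100A10 lacks calcium binding and forms a stable complex with annexin A2, and S100A11 binds annexin A1. Hepatocytes of a healthy liver are known for much annexin A6 and little annexin A2, while bile duct cells, macrophages and fibroblasts are known sources of several of these proteins.

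Libraries held between 20356440 and 21010508 expected counts, which are fragments assigned to transcripts. Levels are given as CPM (the counts of a gene scaled to a common library size) after TMM scaling, or as FPKM, which also divides by transcript length. Mettl14, the targeted gene, lay between 5.81 and 6.43 CPM in the livers labelled AAV8-TBG-GFP and between 4.86 and 5.38 CPM in those labelled AAV8-TBG-Cre (log2 fold change -0.29, SE 0.15, adjusted p = 0.337 by edgeR). The vector named in the labels was therefore used for grouping without a clear check from that mRNA. The first principal component of all genes tested held 54.1% of the variance and separated the vectors. GFP replicate 2 and Cre replicate 2 lay at its ends, and Cre replicate 2 also had the highest level of 23.3% of all genes tested. Library names had a short form (GFP replicates 1 and 2, Cre replicate 1) or a long form (GFP replicate 3, Cre replicates 2 and 3), for which the sources used here give no reason. Hepatocyte markers such as Alb were abundant in every liver.

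In the control livers S100a10 was the most abundant of the 10 mRNAs per transcript length, at 129 ± 34.0 FPKM (SD, n = 3). It made up 73.1% of the summed FPKM of the 5 S100 genes. Anxa5, which binds phosphatidylserine, followed with 60.0 ± 12.8 FPKM, and Anxa6 with 38.8 ± 2.29 FPKM. S100a11 (29.5 ± 10.1 FPKM), Anxa2 (17.8 ± 5.96 FPKM) and S100a16 (15.2 ± 2.45 FPKM) came next, and the ranges of neighbours among these 3 overlapped. Anxa3 (1.88 ± 0.526 FPKM), Anxa1 (1.69 ± 0.233 FPKM), S100a6 (1.58 ± 0.761 FPKM) and S100a4 (1.22 ± 1.08 FPKM) were lowest, and each overlapped the next. S100a10 and Anxa5 exchanged places in the AAV8-TBG-Cre livers, with 106 ± 29.8 FPKM for S100a10 and 114 ± 24.9 FPKM for Anxa5, and their ranges overlapped there.

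**Figure D1:**
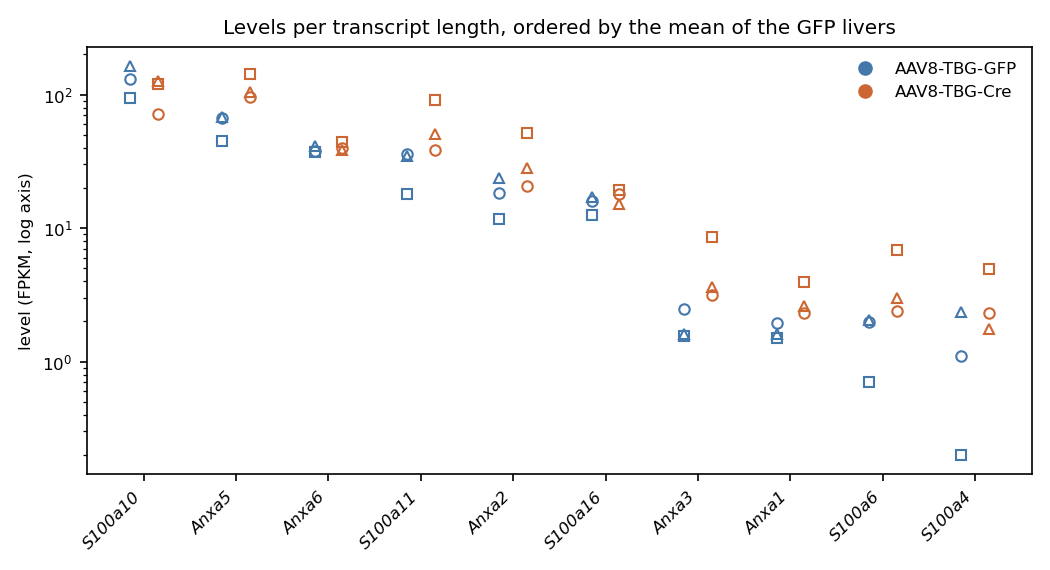
Levels of the 10 mRNAs per transcript length in each liver (FPKM, log axis), ordered by the mean of the GFP livers, with circles, squares and triangles for replicates 1, 2 and 3. S100a10 is highest in the GFP livers at 129 ± 34.0 FPKM, and the means of the 4 lowest genes lie between 1.22 and 1.88 FPKM there.

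Anxa1, Anxa3, Anxa5, S100a6 and S100a11 rose in the AAV8-TBG-Cre livers, which is 5 of the 10 genes, and none of the 10 fell. A gene was called when the edgeR quasi-likelihood test gave an unadjusted p under 0.05 and the fold change was at least 1.2, the study's threshold. Across all genes tested, 12.0% were called higher and 8.41% lower. The median log2 fold change of the 10 genes was 0.72, with a range from -0.46 to 1.23, and 8 of 10 were above 0. Over all genes tested the median was -0.01. Every AAV8-TBG-Cre liver lay above every AAV8-TBG-GFP liver for 4 genes (Anxa1, Anxa3, Anxa5 and S100a6), against 14.0% of all genes tested, and below every one for 1 gene (Anxa6), against 13.0%. With Benjamini-Hochberg adjustment over all genes, edgeR called 0 of the 10 in either direction at 0.05, where the background was 0.484% higher and 0.447% lower, and the same test gave unadjusted p-values under 0.05 for 5. DESeq2 called 2 of them higher after adjustment, Anxa5 (adjusted p = 0.00984) and Anxa3 (adjusted p = 0.0283). The share of all genes that DESeq2 called after adjustment is not reported here, and the edgeR shares are no background for these 2. In whole liver, a change in the number of cells of a type and a change in the RNA per cell cannot be told apart.

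The called number depended on single livers. It was 2 without GFP replicate 2, 2 without Cre replicate 2 and 2 without Cre replicate 3. It was 4 without GFP replicate 1, 6 without GFP replicate 3 and 6 without Cre replicate 1. Higher calls over all genes tested were 1262 of 13763 without GFP replicate 2, 1108 of 13527 without Cre replicate 2 and 1555 of 13698 without Cre replicate 3. They were 1300 of 13738 without GFP replicate 1, 1469 of 13762 without GFP replicate 3 and 2018 of 13678 without Cre replicate 1. With all livers they were 1618 of 13431. Anxa3 and Anxa5 were the members that kept the call in all 16 alternatives tried. Adding the short or long form of the name as a covariate also left 2 members called higher, with 1421 of 13431 genes called higher. Cre replicate 2 had the highest level of 7 of the 10 genes, and GFP replicate 2 had the lowest level of 8, against 17.0% of all genes tested with their lowest level there.

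**Figure D2:**
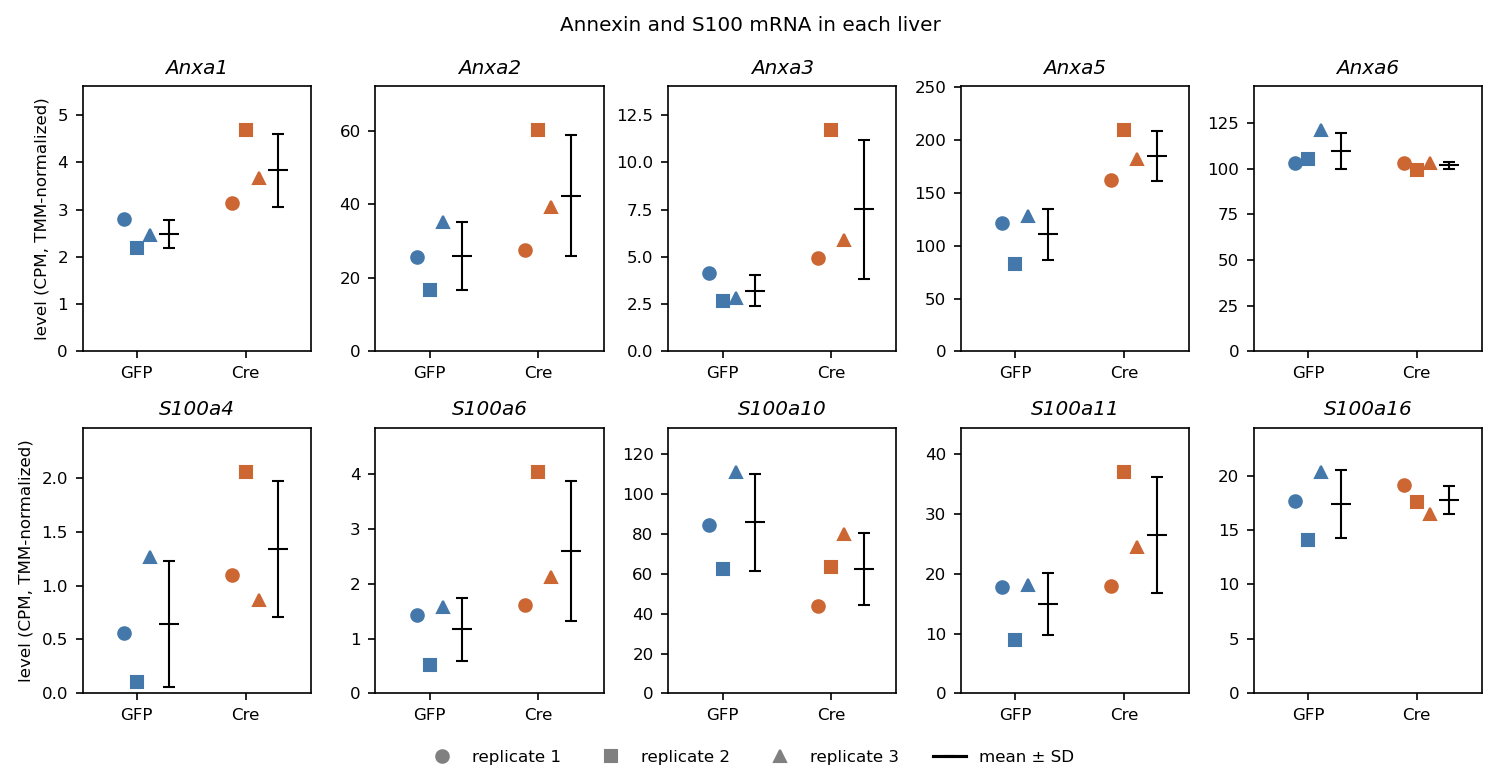
Level of each gene in each liver (CPM after TMM scaling, linear axes from 0), with GFP livers in blue, Cre livers in orange and the mean ± SD of 3 livers in black. Anxa1, Anxa3, Anxa5 and S100a6 show no overlap between the vectors, with every Cre liver above every GFP liver, and Cre replicate 2 (orange square) is the highest liver for 7 genes.

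Anxa5 had the smallest p of the 10 genes. It read 121, 82.6 and 128 CPM in GFP replicates 1 to 3 and 162, 209 and 182 CPM in Cre replicates 1 to 3. All 3 Cre livers lay above all 3 GFP livers, and GFP replicate 2 lay well below the other GFP livers. The log2 fold change was 0.74 (SE 0.19, 95% interval 0.30 to 1.17, adjusted p = 0.0896 by edgeR). The log2 ratio of mean CPM was 0.67 among livers with short library names and 0.61 among those with long names. Without Cre replicate 2 the edgeR log2 fold change was 0.63.

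Anxa3, an annexin of granulocytes and of several epithelia, had the largest fitted change among the 10. Its levels were 4.17, 2.65 and 2.83 CPM in the GFP livers and 4.96, 11.7 and 5.87 CPM in the Cre livers. The groups did not overlap, but Cre replicate 2 stood well above the other Cre livers. The log2 fold change was 1.23 (SE 0.36, 95% interval 0.38 to 2.07, adjusted p = 0.123 by edgeR). Without Cre replicate 2 it was 0.75 and still called, with an adjusted p of 0.267 by edgeR. Within the library name forms the log2 ratios of mean CPM were 0.54 (short) and 1.64 (long).

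Anxa1, whose protein limits inflammation through formyl peptide receptors, was low in every liver. It read 2.80, 2.19 and 2.46 CPM in GFP replicates 1 to 3 against 3.15, 4.68 and 3.66 CPM in the Cre livers. The highest GFP liver and the lowest Cre liver were close together without overlapping. Its log2 fold change was 0.63 (SE 0.23, adjusted p = 0.188 by edgeR). The call was lost without GFP replicate 2 (0.54), without GFP replicate 3 (0.61), without Cre replicate 2 (0.45) and without Cre replicate 3 (0.66). Of the genes for its receptors, Fpr1 had a log2 fold change of 0.33 (95% interval -0.72 to 1.37) and Fpr2 of 0.25 (95% interval -0.87 to 1.37), and neither was called.

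Anxa2, the annexin that organizes membrane and actin and serves as a surface site for plasminogen activation, did not pass the test. Its levels were 25.7, 16.8 and 35.3 CPM in the GFP livers and 27.7, 60.2 and 39.2 CPM in the Cre livers. Cre replicate 1 lay inside the GFP range, and the other Cre livers lay above it. Its log2 fold change was 0.71 (SE 0.33, 95% interval -0.07 to 1.49, adjusted p = 0.277 by edgeR). The gene was called by DESeq2 (0.71, adjusted p = 0.223) and by edgeR without a filter on low counts (0.70, adjusted p = 0.268). It was also called without GFP replicate 3 (0.99) and without Cre replicate 1 (0.94), while without Cre replicate 2 the value was 0.36 and not called.

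S100a11, a partner of annexin A1 in membrane repair, followed the same order of livers as Anxa2. Its levels were 17.8, 8.98 and 18.1 CPM in the GFP livers against 18.0, 37.0 and 24.5 CPM in the Cre livers. Cre replicate 1 fell just under GFP replicate 3, so the groups overlapped, and Cre replicate 2 was highest. Between vectors the log2 fold change was 0.83 (SE 0.33, 95% interval 0.06 to 1.59, adjusted p = 0.211 by edgeR). The call was lost without GFP replicate 2 (0.57), Cre replicate 2 (0.51) or Cre replicate 3 (0.88). A pseudogene, S100a11-ps, is annotated, and whether reads it may share with S100a11 were divided between them was not tested.

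S100a6, calcyclin, a protein of proliferating epithelial and mesenchymal cells, rested on few reads. Its expected counts were 28, 10 and 30 in the GFP livers and 34, 98 and 44 in the Cre livers, or 0.51 to 1.57 CPM against 1.62 to 4.03 CPM. The lowest Cre liver was only just above the highest GFP liver. The log2 fold change was 1.15 (SE 0.49, adjusted p = 0.238 by edgeR), and RLE in place of TMM scaling was enough to lose the call (1.16). It was also lost without GFP replicate 1 (1.32), GFP replicate 2 (0.80), Cre replicate 2 (0.68) or Cre replicate 3 (1.27).

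S100a4, a protein of fibroblasts and macrophages that acts on myosin, had the lowest CPM of the 10 genes in every liver. Its expected counts were 11, 2 and 24 in the GFP livers against 23, 50 and 18 in the Cre livers. The groups overlapped, since GFP replicate 3 lay above Cre replicates 1 and 3. S100a4 had a log2 fold change of 1.08 with an interval that held 0 (SE 0.69, 95% interval -0.54 to 2.69, adjusted p = 0.426 by edgeR). That interval also held the value of Anxa3, 1.23. It was called only without GFP replicate 3, where the log2 fold change was 2.00.

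Anxa6 and S100a16 differed little between the vectors. Anxa6 read 103, 105 and 121 CPM in the GFP livers and 103, 99.4 and 103 CPM in the Cre livers, with a log2 fold change of -0.11 (SE 0.11, 95% interval -0.36 to 0.14, adjusted p = 0.61 by edgeR). Every Cre liver lay below every GFP liver in CPM, with GFP replicate 1 and Cre replicate 1 equal after rounding. On deposited FPKM the groups overlapped and limma gave 0.06. S100a16, which is found in many tissues, read 17.7, 14.1 and 20.3 CPM in the GFP livers against 19.1, 17.6 and 16.5 CPM in the Cre livers, and all 3 Cre livers lay inside the GFP range. Its log2 fold change was 0.03 (SE 0.15, 95% interval -0.32 to 0.37, adjusted p = 0.942 by edgeR), and the sign turned without GFP replicate 2 (-0.10) or Cre replicate 1 (-0.03). The patterns of these 2 genes over the 6 livers were nearest to each other among the 10, with a root mean square difference of 0.147 in centred log2 CPM. The annotated span of Anxa6 overlaps that of the lncRNA gene Gm19911. Reads of any shared exons could not be told apart without strand, which the sources used here do not mention. Whether exons are shared was not tested.

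S100a10 had the lowest fold change of the 10 and did not pass the test. Its levels were 84.3, 62.2 and 111 CPM in the GFP livers and 43.9, 63.3 and 80.0 CPM in the Cre livers. Cre replicate 1 lay below all GFP livers, and Cre replicates 2 and 3 lay inside their range. Its log2 fold change was -0.46 (SE 0.27, 95% interval -1.08 to 0.16, adjusted p = 0.37 by edgeR). It was called lower without GFP replicate 2 (-0.65) and without Cre replicate 3 (-0.68), and with name form added as a covariate (-0.69, adjusted p = 0.0774 by edgeR). The log2 ratios of mean CPM were -0.74 among short names and -0.64 among long names.

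**Figure D3:**
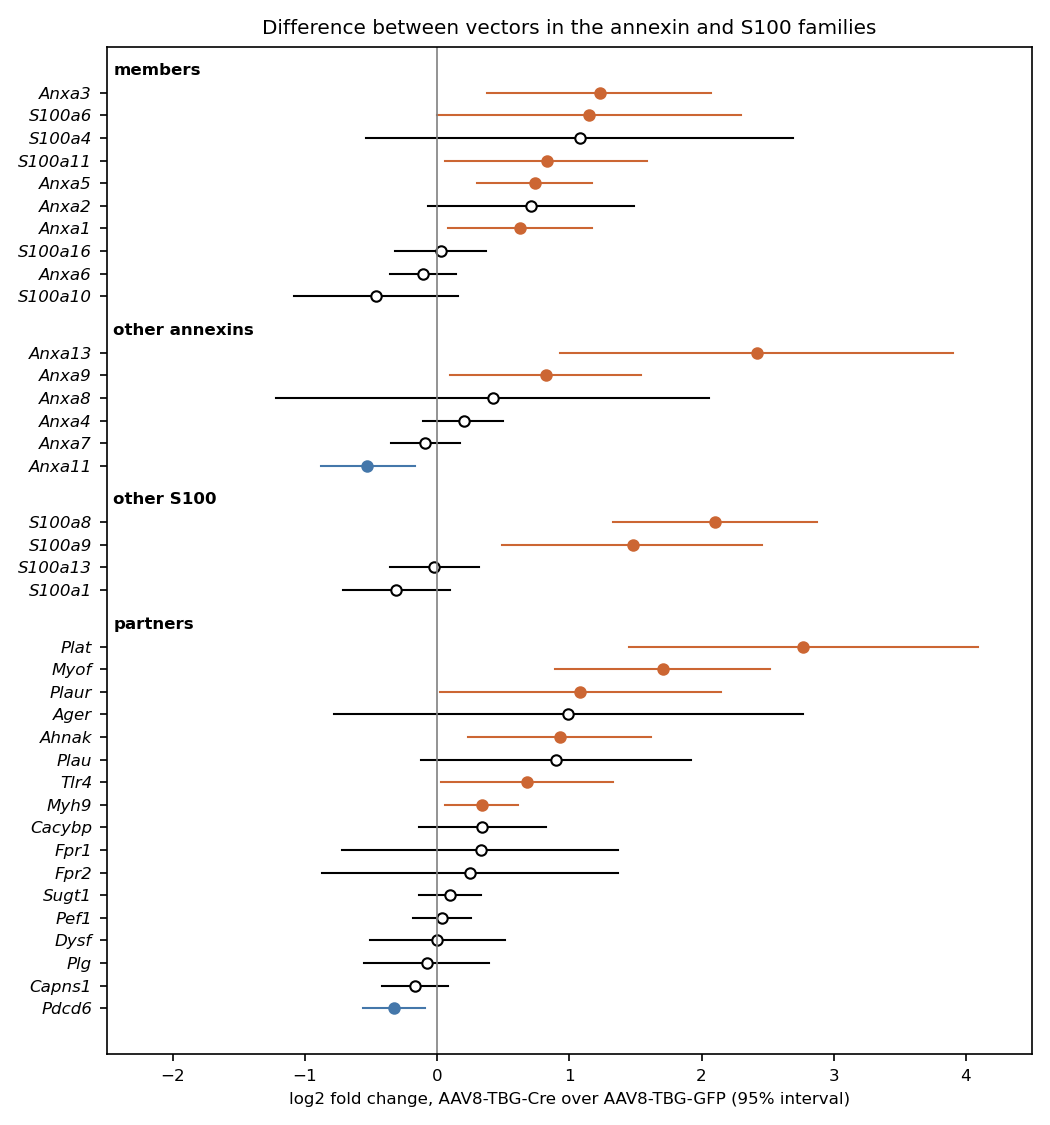
Log2 fold change of AAV8-TBG-Cre over AAV8-TBG-GFP with its 95% interval (edgeR) for the 10 members, the other annexin and S100 genes tested and the partner genes reported here, with filled orange for called higher, filled blue for called lower and open black for no call. Members run from 1.23 (Anxa3) to -0.46 (S100a10), and 5 are filled.

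The mRNAs of the annexin A2 and S100A10 complex were compared within each liver, where neither had passed the test alone. The ratio of S100a10 FPKM to Anxa2 FPKM was 7.15, 8.08 and 6.89 in the GFP livers and 3.46, 2.29 and 4.45 in the Cre livers, so the lowest GFP ratio was above the highest Cre ratio. The means were 7.37 ± 0.625 in the GFP livers and 3.40 ± 1.08 in the Cre livers (SD, n = 3). The log2 ratio differed by -1.16 (Cre minus GFP), with p = 0.1 in an exact two-sided permutation test, the smallest value that 3 livers against 3 can give. The difference was -1.14 among short library names and -1.11 among long names, and it ran from -1.39 to -0.91 when each liver was left out in turn. A ratio within a library does not depend on how the library was scaled, and it does not say which of the mRNAs changed.

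**Figure D4:**
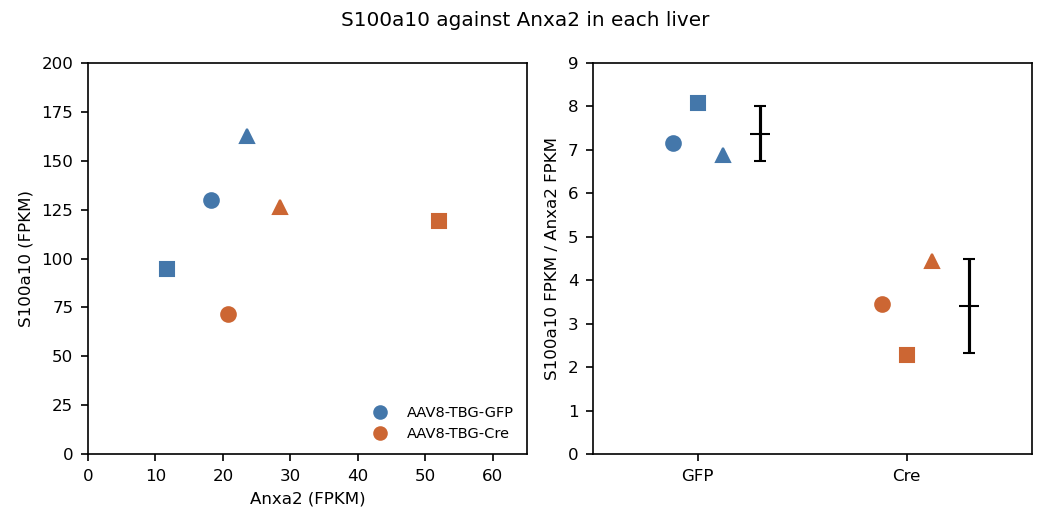
S100a10 FPKM against Anxa2 FPKM in each liver (left) and their ratio by vector with the mean ± SD of 3 livers (right), with circles, squares and triangles for replicates 1, 2 and 3. The GFP ratios lie between 6.89 and 8.08 and the Cre ratios between 2.29 and 4.45.

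The genes with patterns most like these mRNAs were found among 11295 genes with a mean log2 CPM of at least 1, by the root mean square difference in centred log2 CPM over the 6 livers. For Anxa2 they were Lratd2 (0.114), Tmprss2 (0.133), Sema3b (0.139), S100a11 (0.152) and Pitpnm1 (0.154), of which 1 stayed among the 5 nearest on log2(FPKM + 1). For S100a10 they were Tsku (0.0866), Plin2 (0.119), Pctp (0.119), Tlr12 (0.132) and Hacl1 (0.133), of which 4 stayed. Plin2 coats lipid droplets, Pctp carries phosphatidylcholine and Hacl1 is a peroxisomal enzyme of fatty acid oxidation. Plin2 read 724, 696 and 1092 CPM in the GFP livers and 402, 606 and 730 CPM in the Cre livers, a log2 fold change of -0.53 that was not called (adjusted p = 0.31 by edgeR). Anxa2 stood at place 9589 in the order of likeness to S100a10. Among the 10 members S100a10 was the least alike to Anxa2, with a difference of 0.648 against 0.152 for S100a11.

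S100a10 and S100a11 are neighbours. In the GRCm38.p6 annotation S100a11 lies at chr3:93520496-93526288 and S100a10 at chr3:93555117-93564645, with 28828 bases and no other coding gene between them. All 5 S100 members are on chromosome 3, where S100a16 (chr3:90537254-90543151), S100a4 (chr3:90603770-90606045) and S100a6 (chr3:90612894-90614414) sit in a second group. Values of the neighbours lay on either side of 0, with a log2 fold change of 0.83 for S100a11 and -0.46 for S100a10, of which the second was not called. The annexins are spread out, with Anxa5 at chr3:36448923-36475887, Anxa3 at chr5:96793385-96845968, Anxa2 at chr9:69453683-69491792, Anxa6 at chr11:54978953-55033471 and Anxa1 at chr19:20373434-20390671.

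Anxa2 and S100a11, which were nearest in pattern to each other among the members, both had a match to the AP-1 motif close upstream of the RefSeq start site. The 250 bases before the start are shown for both, read in the direction of the gene, because the pair shares these letters, as it shares SP1 letters. Capitals mark TGANTCA, which reads the same on both strands.
Anxa2, chr9:69453433-69453682, plus strand: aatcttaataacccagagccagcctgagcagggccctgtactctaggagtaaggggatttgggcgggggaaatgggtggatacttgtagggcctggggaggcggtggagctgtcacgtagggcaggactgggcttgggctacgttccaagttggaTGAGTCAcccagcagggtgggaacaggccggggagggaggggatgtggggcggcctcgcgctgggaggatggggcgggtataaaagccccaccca
S100a11, chr3:93520246-93520495, plus strand: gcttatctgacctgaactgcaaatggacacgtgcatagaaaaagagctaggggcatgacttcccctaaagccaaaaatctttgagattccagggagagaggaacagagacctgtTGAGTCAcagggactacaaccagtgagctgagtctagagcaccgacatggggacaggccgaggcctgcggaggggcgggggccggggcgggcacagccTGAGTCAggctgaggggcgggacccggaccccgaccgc

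The match began 95 bases before the start in Anxa2, and the matches began 136 and 38 bases before it in S100a11. RefSeq promoter windows of 300 bases (250 before the start and 50 after) matched 7 of the 10 genes, in 8 windows, and Anxa3, Anxa6 and S100a10 had no entry. AP-1 letters were in windows of 3 of those 7 genes, the other being S100a16 with a match 192 bases before its second start, while 7.81% of all 32851 promoter windows hold them. GGGCGG, the letters of an SP1 box, was in windows of Anxa2, S100a11 and S100a16 on either strand (35.7% of all windows), and GGAATG, a TEAD motif, was in that of Anxa1 (14.7% of all windows). No motif contains another. Anxa1, Anxa5, S100a4 and S100a6 had no AP-1 letters in these windows. Anxa5 and S100a6, which rose, held no match to any of the motifs, and S100a16, which held TGAATCA, was not called.

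Of the other annexin and S100 genes, 18 were listed, 14 had counts and 10 were tested. Of these, 4 rose and 1 fell, against 12.0% and 8.41% of all genes tested. The median log2 fold change of these 10 was 0.31. Anxa13, an epithelial annexin of the apical membrane, read 1.02, 0.306 and 0.942 CPM in the GFP livers against 1.48, 7.02 and 3.61 CPM in the Cre livers, which gave 2.42 on the log2 scale (SE 0.64, adjusted p = 0.097 by edgeR) and 1.74 without Cre replicate 2. Anxa9, an annexin without the usual calcium sites, read 1.38 to 1.78 CPM against 1.86 to 3.70 CPM (0.82, SE 0.31, adjusted p = 0.192 by edgeR). The annotated span of Anxa9 overlaps those of Cers2 and Mindy1, and whether exons or reads are shared was not tested. The Anxa9 call was lost without GFP replicate 1 (0.81), GFP replicate 2 (0.73), Cre replicate 2 (0.56) or Cre replicate 3 (0.82). Anxa11, a carrier of RNA granules on lysosomes, was the gene that fell, from 68.1, 74.7 and 59.8 CPM to 56.9, 41.3 and 42.6 CPM (-0.53, SE 0.15, adjusted p = 0.12 by edgeR). Anxa4, Anxa7, Anxa8, S100a1 and S100a13 were not called.

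S100a8 and S100a9, the subunits of calprotectin, both rose. S100a8 read 0.254, 0.306 and 0.262 CPM in the GFP livers and 1.15, 1.15 and 1.30 CPM in the Cre livers, from 5 or 6 against 24 to 28 expected counts, a log2 fold change of 2.10 with SE 0.33. It was the family gene that passed the adjusted threshold by edgeR (adjusted p = 0.0409), and the study threshold held in all 15 alternatives that could test it. The edgeR adjusted call was lost without GFP replicate 1 (adjusted p = 0.155), GFP replicate 2 (0.173), GFP replicate 3 (0.13), Cre replicate 2 (0.0815) or Cre replicate 3 (0.0966), and with name form as a covariate (0.0515). Among the called genes of this list, DESeq2 gave adjusted p under 0.05 to S100a8 (0.00482), Anxa13 (0.00403), S100a9 (0.034) and Anxa11 (0.0491, lower). Anxa9 did not pass by DESeq2 (adjusted p = 0.188). S100a9 read 1.22, 0.765 and 0.785 CPM against 3.24, 1.31 and 3.22 CPM (1.48, SE 0.42, adjusted p = 0.116 by edgeR). For S100a9 Cre replicate 2 was the lowest Cre liver, where it was the highest for Anxa3, Anxa5 and S100a11. Neutrophils are the best known source of calprotectin. Among their 10 markers Ly6g fell, from 5.03 to 5.97 CPM down to 3.32 to 4.29 CPM, Csf3r rose, and Mpo and Elane lay under 1 CPM in every liver. Granule protein genes Ngp (4, 0 and 0 expected counts in the GFP livers, 40, 7 and 37 in the Cre livers), Ltf (5, 0 and 0 against 24, 8 and 32) and Mmp8 (3, 1 and 1 against 7, 24 and 11) were too low to be tested. Every Cre liver lay above every GFP liver for each, as for 14.0% of all genes tested. Camp (1, 1 and 0 against 7, 0 and 8) and Retnlg (3, 3 and 0 against 20, 3 and 7) were not tested either, and their groups overlapped. Cxcr2 had a log2 fold change of 0.04 and was not called. For Ngp, Ltf, Camp, Retnlg, Elane and Cxcr2, as for S100a9, Cre replicate 2 was the lowest Cre liver. The same liver was the highest for Csf3r (10.6 CPM against 4.34 and 6.35 CPM) and Mmp8, and lay between the other Cre livers for Ly6g and Mpo. The part of neutrophils in the S100a8 and S100a9 values was not tested.

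Partner genes were 18 genes for proteins that bind annexins or S100 proteins, are their receptors or act in the plasminogen system, and all 18 were tested. Of these, 6 rose and 1 fell, against 12.0% and 8.41% of all genes tested. The median log2 fold change of the partner genes was 0.33. At an adjusted p under 0.05 by edgeR 0 were called, against 0.484% higher and 0.447% lower over all genes. Among the partner genes called at the study threshold, DESeq2 gave an adjusted p under 0.05 to Plat (5.87e-05) and Myof (0.000288) and not to the others. Its share over all genes is not reported here. Ahnak, a giant scaffold that binds annexin A2 and S100A10, read 18.2, 18.3 and 14.2 CPM in the GFP livers and 22.8, 49.4 and 24.0 CPM in the Cre livers (0.93, SE 0.30, adjusted p = 0.146 by edgeR). Myof, a membrane repair ferlin, had a log2 fold change of 1.71 (SE 0.35), and Myh9, the nonmuscle myosin bound by S100A4, one of 0.34 (SE 0.12). In the plasminogen system Plat, the tissue activator that annexin A2 binds, read 0.561 to 1.12 CPM against 2.72 to 10.7 CPM (2.77, SE 0.57, adjusted p = 0.0619 by edgeR), and its log2 fold change was 1.98 without Cre replicate 2. Plaur, the urokinase receptor, had a log2 fold change of 1.08 (SE 0.46), while Plau (0.90) and Plg (-0.08) were not called. Tlr4, a receptor for calprotectin, had 0.68 (SE 0.28), and Pdcd6, a calcium sensor that binds annexins A7 and A11, was the gene that fell (-0.33, SE 0.10). The number that rose was 3 without GFP replicate 3 and 3 without Cre replicate 2.

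Markers of other liver cells moved with the same contrast, in which 12.0% of all genes tested were called higher and 8.41% lower. Of the 10 bile duct markers, 9 were tested and 9 rose, and their summed level was 67.5 to 128 CPM in the GFP livers and 349 to 617 CPM in the Cre livers. Most of that sum was Spp1, at 38.0 to 89.0 CPM in the GFP livers and 219 to 457 CPM in the Cre livers. Cdh1 was next, at 17.1 to 23.9 CPM against 62.7 to 76.1 CPM. Krt19 read 0.714 to 1.88 CPM against 4.10 to 10.4 CPM. Of the 12 macrophage markers 9 rose (sums of 189 to 211 CPM against 282 to 420 CPM), and of the 10 stellate cell and fibroblast markers 5 rose (248 to 378 CPM against 487 to 1026 CPM). Of the 6 mesothelial markers 4 were tested and 2 rose, with sums of 1.33 to 3.98 CPM against 3.96 to 10.5 CPM. Cre replicate 2 had the highest sum of each of these 4 lists, as it had the highest level of 7 of the 10 annexin and S100 genes. This was not particular to these lists. The same liver had the highest neutrophil (21.4 CPM) and T and NK cell (8.01 CPM) sums and the highest level of 23.3% of all genes tested. GFP replicate 2 had the lowest bile duct, mesothelial and B cell sums, and the lowest level of 8 of the 10 genes. The part of these cells in the annexin and S100 values was not tested.

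The other lists were smaller in level, mixed in direction or not higher. The 10 neutrophil markers summed to 14.3 to 15.9 CPM against 19.7 to 21.4 CPM, with 3 tested, 1 higher and 1 lower, and 5 of them under 1 CPM in every liver. Endothelial markers did not rise, with sums of 167 to 269 CPM against 171 to 205 CPM. Of these 10 markers 1 was lower, against 8.41% of all genes tested. Hepatocyte markers, 9 of 10 of which were tested, had 2 higher and 1 lower. T and NK cell markers (3 of 10 tested, 1 higher, 1 lower) summed to 3.82 to 6.07 CPM against 4.20 to 8.01 CPM, and B cell markers (1 of 4 tested, 1 higher) to 1.33 to 1.47 CPM against 1.59 to 3.96 CPM.

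**Figure D5:**
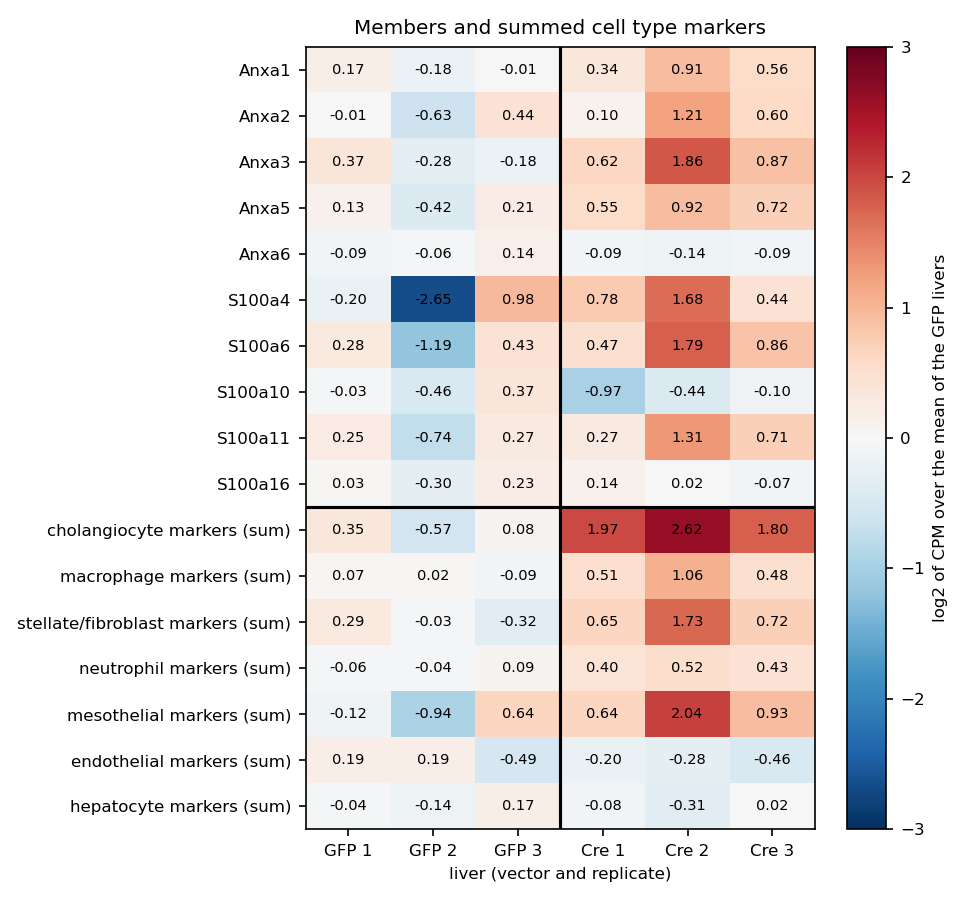
Log2 of CPM over the mean of the GFP livers for the 10 genes (above the line) and for summed marker lists (below it), in each liver, with red for higher and blue for lower. In Cre replicate 2 the bile duct sum, most of it Spp1, is at 2.62, the stellate and fibroblast sum at 1.73 and Anxa3 at 1.86, while S100a10 is at -0.44.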

How the data were processed

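RNA-seq libraries of 6 livers were grouped by the vector that their titles name. The authors deposited expected counts per transcript without normalization, and FPKM per transcript and per gene together with transcript lengths. The submitters' processing notes name HISAT2, Bowtie2, RSEM and mm10, while the methods name STAR, HTSeq and DESeq2, all without versions. Oligo dT selection or rRNA depletion preceded random priming.

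These expected counts were added up over the transcripts of each NCBI gene and rounded to whole numbers. The edgeR 4.0.16 quasi-likelihood test in R 4.3.3 used TMM, filterByExpr, the vector as the only factor and Benjamini-Hochberg adjustment over all 13431 genes tested, and was tested on simulated counts. DESeq2 1.42.0, limma 3.58.1 on log2(FPKM + 1) or log2(FPKM + 0.1) on genes reaching 0.5 FPKM in 3 or more livers, other scalings and filters, covariates and leaving out each liver were alternatives. Which litters or cages the mice came from is not given in the sources used here, and no 2 libraries of a group were alike within sampling noise. The 10 genes and the lists were chosen with earlier results of these data known. Named genes were the members, the called genes of the family and partner lists, and the 5 genes nearest in pattern to Anxa2 and to S100a10. Uncalled family and partner genes and single markers that are also named were chosen after their values were seen. Marker Tf and S100a5, S100a7a, S100b and S100z were not analysed here, and not every gene of the lists is reported here by name. Promoters and positions are from RefSeq GRCm38.p6, the assembly also called mm10.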

Additional observations from a re-analysis of the deposited data

How the results depend on the processing

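The S100a10 to Anxa2 ratio was lower in the AAV8-TBG-Cre livers in all 7 alternatives, none of which could have turned its sign. The groups did not overlap, so leaving out a liver keeps the direction, and the CPM ratio differs from the FPKM ratio by a constant factor. Anxa3 and Anxa5 kept direction and call in all 16. Of the members' calls, Anxa1 kept its call in 10, S100a11 in 11 and S100a6 in 8, and S100a10 was below 0 in all 16. Replicate numbers did not pair the livers: deviations of same-numbered livers correlated at 0.00915, -0.263 and 0.209, and 2 of 6 livers were most alike to the other group's liver of their number. The replicate block gave 2 members higher, and so did the library name form as a covariate, which also gave 1 lower. Under the block S100a8 had an adjusted p of 0.115 by edgeR. Leaving out each liver gave 2 to 6 members higher and 0 to 1 lower. DESeq2 called 2 members higher after adjustment, for which no share over all genes is reported here. The other family genes that rose numbered 2 with at least 10 counts in every library. Anxa13 and S100a8 did not pass that filter and were not tested under it, nor was the member S100a4. The other family genes that fell numbered 0 by limma on log2(FPKM + 1) without a filter and 1 to 2 with a liver left out. Partner genes that rose numbered 3 by limma on log2(FPKM + 1) with or without a filter and 3 to 8 with a liver left out, and those that fell 0 in all 3 limma fits. Anxa6 turned to 0.06 in all 3 limma fits, and S100a16 to -0.10 without GFP replicate 2 and -0.03 without Cre replicate 1. The causes were not tested. FPKM moved the median of all genes to 0.11 (pseudocount 1) or 0.14 (pseudocount 0.1), and higher against lower calls from 1618 and 1129 to 1880 and 365 or 1995 and 376. Upper quartile scaling gave 1922 and 737. Members near 1 CPM rested on few reads (S100a4 on 2 to 50 and S100a6 on 10 to 98 expected counts).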

Other observations

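Anxa6 was the member with more than 1 transcript in the files. Its transcripts NM_001110211 and NM_013472 differ in length by 18 bases. The shorter one was assigned 62.0, 45.7 and 45.5% of the gene's expected counts in GFP replicates 1 to 3 and 48.6, 44.3 and 50.1% in Cre replicates 1 to 3. GFP replicate 1 stood apart from the other 5 livers, and the vectors overlapped. The split is an estimate by the authors' software from the fragments that tell the transcripts apart.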
